A study of Mus musculus with 6 samples.

Results

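The genes described here are the Rab GTPases, their regulators and the proteins that sort and fuse vesicles, as expressed in human leukemic cells taken from mouse marrow. They were chosen by name: every row of the deposited table whose symbol begins with RAB, VPS, SNX, STX or VAMP and a digit, with RABGAP, RABGEF, RABEP or TBC1D, or with PACSIN1 to PACSIN3. This gave 172 of 13892 rows. Of the 172, 48 were grouped by symbol as Rab GTPases, 31 as Rab GTPase-activating proteins (GAPs) and 9 as other Rab effectors or exchange factors. A further 31 were grouped as VPS proteins, 26 as sorting nexins, 14 as syntaxins, 6 as VAMPs and 2 as PACSINs. The other 5 rows are 3 antisense transcripts, 1 pseudogene and 1 readthrough transcript. The GAP group holds all TBC1D, RABGAP and RAB3GAP genes, and not every one need encode an active Rab GAP. VPS72 shares the name but encodes a histone chaperone, so it is no sorting protein.

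The leukemic stem cells (LSC) were sorted as GFP+, CD33+ and CD123+ cells, and the bulk leukemic cells as GFP+ and CD33+ cells. Both populations came from the same 3 moribund mice of the immunodeficient NSG strain, each carrying acute myeloid leukemia (AML) from a separate transduction of human hematopoietic stem cells with NPM1c, so both carry the transgene and there is no untransduced control. GFP stood in for the transgene, a cytoplasmic mutant of nucleophosmin, and the bulk gate was not set on CD123, so bulk may hold some CD123+ cells. The comparison asks which genes differ between the CD123+ fraction and the bulk of one leukemia. IL3RA, the gene of CD123, had 139.5, 47.99 and 135 CPM in LSC, against 1.54, 2.12 and 2.37 CPM in bulk, in the order of mice 1, 2 and 3, which is the order of all such lists here. CD33 had 6.80, 8.05 and 1.17 CPM in LSC, against 4.45, 8.21 and 13.1 CPM in bulk, with overlap between the populations.

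Rab GTPases are molecular switches that mark membranes. Exchange factors load them with GTP, effectors bind the loaded form to move or tether vesicles, and GAPs, most of them with a TBC domain, turn them off. VPS complexes and sorting nexins bend membranes and pick cargo at endosomes, and syntaxins and VAMPs are SNAREs that drive fusion. In blood cells these proteins govern granule release, antigen uptake and the delivery of Toll-like receptors to endosomes.

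Libraries held 10669560 to 14933494 reads. Of these, 27.2% to 70.0% lay on 10 MTRNR2L rows, and the share was highest in bulk of mouse 1, which kept 3423878 reads for other genes. There, 3 reads were worth 0.514 CPM (reads scaled to the normalized library size), against 0.190 to 0.254 CPM in the other libraries. These limits hold for counting error alone, and CPM are not divided by transcript length, so levels are compared between libraries and not between genes. Summed levels of markers of other cell types varied too. The summed level of 15 plasmacytoid dendritic cell markers was 2161 to 3845 CPM in LSC, against 155 to 504 CPM in bulk. In limma without pairing by mouse 11 of 15 were higher, against 2.71% of all genes, and none was at 0 in either population. The sum of 11 B cell markers was 35.7 to 71.0 CPM in LSC and 154 to 1098 CPM in bulk, highest in bulk of mouse 3, and that of 11 erythroid markers ranged over 59.6 to 235 CPM in LSC, against 212 to 909 CPM in bulk. The sum of 12 granule and neutrophil markers was 141 and 153 CPM in the LSC and bulk of mouse 3, against 1524 to 4525 CPM in the other libraries. The sum of 9 monocyte markers was 948 to 2591 CPM in LSC and 3527 to 5579 CPM in bulk. That of 9 T and NK cell markers was 114.9 to 142.6 CPM in LSC and 80.8 to 115.3 CPM in bulk. In the same test 2 of 10 B cell, 3 of 11 erythroid and 1 of 8 monocyte markers were lower, against 1.33% of all genes. No granule and neutrophil or T and NK cell marker passed. The part of such cells in the results below was not tested, and in sorted bulk RNA fewer cells of a type and less RNA per cell cannot be told apart.

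Over the whole group, few members differed between the populations. All 172 passed the filter on low values (at least 1 CPM in at least 3 libraries), with 71 to 34270 reads per member over the 6 libraries and a median of 1536. In limma, without pairing by mouse and with adjustment over all 13755 genes tested, 8 members rose in LSC at an adjusted p of 0.05, 0 fell and 164 did not pass. Among all genes tested 4.04% passed, 2.71% higher and 1.33% lower, against 4.65% of members. At an unadjusted p under 0.05 there were 21 higher and 14 lower members (12.2% and 8.14%), against 10.2% and 10.1% of all genes, and 20.3% in both directions against 20.2%. Voom on the recovered reads called 7 higher and 1 lower. The median log2 difference (LSC minus bulk) was 0.10 over the members and 0.00 over all genes tested, and 46.5% of members lay within 0.5 log2 units of 0, against 44.8% of all genes.

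The count of 8 rests on single libraries. It was 2, 4, 3 and 3 without LSC of mouse 1, LSC of mouse 3, bulk of mouse 1 or bulk of mouse 2, and 7 and 6 without LSC of mouse 2 or bulk of mouse 3. With the mouse as a block, which the design allows because both populations come from each marrow, 18 members rose and 8 fell. The 26 are 15.1% of members, against 16% of all genes, of which 8.25% rose and 7.71% fell. These 26 include all 8. The blocked counts were 9 and 1 without mouse 1, 8 and 2 without mouse 2, and 27 and 11 without mouse 3. In the authors' deposited table no member had a false discovery rate under 0.05, and 3 had one under 0.1. These were PACSIN1 and VPS37B (0.0813 each) and TBC1D4 (0.0967), with PACSIN1 and TBC1D4 higher and VPS37B lower in LSC.

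**Figure D1:**
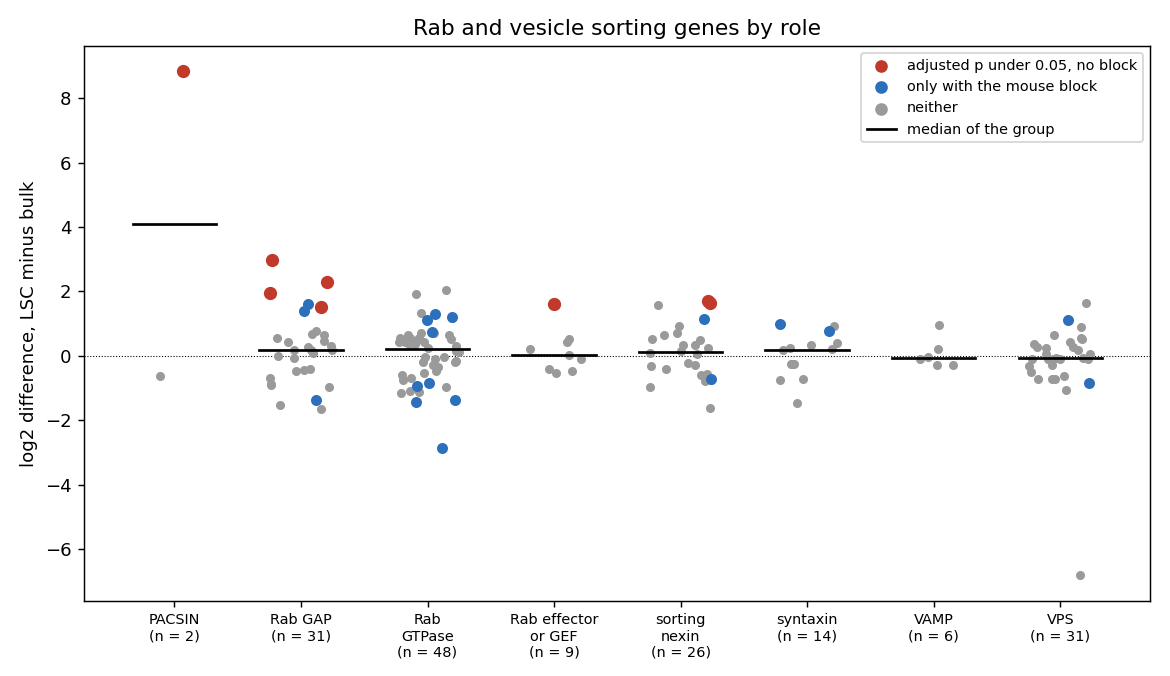
Log2 difference (LSC minus bulk) of each gene by role, 1 point a gene, with the median of each role as a black line. Of all 172 members, 46.5% lie within 0.5 log2 units of 0, against 44.8% of all genes tested. The genes that passed without the block (red) are all above 0, at 1.52 to 8.84. Among all genes tested 2.71% passed higher and 1.33% lower.

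The widest difference belonged to PACSIN1, an F-BAR protein that bends membranes at sites of endocytosis, is abundant in neurons and has been described in plasmacytoid dendritic cells. PACSIN1 had 48.5, 22.00 and 39.2 CPM in LSC, against 0, 0.0847 and 0.192 CPM in bulk. PACSIN1 was under 1 CPM in all bulk libraries and passed the filter through LSC alone, so the filter fixed the lack of overlap. Every LSC library lay far above every bulk library, which held 4 reads in all against 1540 in LSC. Pooled over libraries that is a ratio of 298, with an exact 95% interval for counting error of 116 to 1095. Its fitted log2 change was 8.84 (SE 0.94, limma adjusted p = 0.00152), a size set partly by the prior that the authors' values contain, and was as small as 2.97 with 5 CPM added. It was called in all 20 alternative settings run. PACSIN2, the widely expressed relative, had 21.9, 11.3 and 8.53 CPM in LSC, against 32.4, 21.7 and 11.00 CPM in bulk. Its populations overlapped, and its log2 change of -0.62 (SE 0.50) did not pass (limma adjusted p = 0.520). Plasmacytoid dendritic cell markers moved with PACSIN1: IRF8 had 982, 565 and 932 CPM in LSC, against 31.7, 41.5 and 31.5 CPM in bulk, and CLEC4C had 127, 80.1 and 95.1 CPM in LSC, against 2.05, 3.47 and 3.52 CPM in bulk. The part of such cells in the PACSIN1 difference was not tested.

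Of 31 genes grouped as Rab GAPs, 4 rose, 0 fell and 27 did not pass in limma, against 2.71% of all genes higher and 1.33% lower. At an unadjusted p under 0.05, 6 were higher and 2 lower, against 10.2% and 10.1% of all genes. The block called 6 higher and 1 lower, against 8.25% and 7.71%, and the median log2 difference was 0.19. TBC1D4, also known as AS160, is a substrate of the kinase Akt that restrains the Rabs which carry the glucose transporter GLUT4 to the surface. It had 100.1, 83.2 and 86.4 CPM in LSC, against 9.59, 9.65 and 15.8 CPM in bulk. The populations were far apart and the 3 LSC libraries were alike. The log2 difference came to 2.98 (SE 0.32, limma adjusted p = 0.00157), with LSC above bulk in 3 of 3 mice. Of 20 alternative settings, 1 ended the call, which was leaving out both libraries of mouse 1 (limma adjusted p = 0.0772).

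TBC1D9B and TBC1D9, a pair of closely related TBC proteins, both rose. TBC1D9B had 51.9, 36.1 and 36.9 CPM in LSC, against 8.56, 13.8 and 9.79 CPM in bulk. TBC1D9 had 45.9, 12.8 and 35.6 CPM in LSC, against 7.70, 3.73 and 6.14 CPM in bulk. In both genes every LSC library exceeded every bulk library, and LSC of mouse 1 was the highest. Log2 changes were 1.97 (SE 0.34, limma adjusted p = 0.0167) for TBC1D9B and 2.29 (SE 0.53, adjusted p = 0.0469) for TBC1D9. Leaving out bulk of mouse 1 raised the adjusted p to 0.0684 and 0.0900, and leaving out LSC of mouse 1 also ended both calls. The TBC1D9 call ended as well without LSC of mouse 3, bulk of mouse 2 or bulk of mouse 3 (limma adjusted p of 0.140, 0.136 and 0.0770) and with voom, quantile normalization or no trend (0.0759, 0.0570 and 0.104). In all, 11 of 20 alternative settings ended it, against 5 of 20 for TBC1D9B. RABGAP1L, a broadly expressed TBC protein, had 297, 208 and 279.9 CPM in LSC, against 118, 75.3 and 81.6 CPM in bulk. The populations did not overlap, and the difference was 1.52 log2 units (SE 0.29, limma adjusted p = 0.0235, and 0.0402 without bulk of mouse 1). Its call ended without LSC of mouse 1, LSC of mouse 3 or bulk of mouse 2.

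In the test without the block the other GAP genes did not pass. TBC1D32, which acts in the primary cilium, had 47.7, 47.4 and 45.5 CPM in LSC, against 13.9, 9.99 and 25.7 CPM in bulk. Its LSC libraries were nearly equal and lay above all bulk libraries, of which that of mouse 3 was the nearest. TBC1D32 had a log2 difference of 1.62 (SE 0.39, limma adjusted p = 0.0513, and 0.0116 with the block). It lay close to the threshold, and 7 of the settings without the block called it, at 0.0195 without bulk of mouse 3, 0.0421 without both libraries of mouse 3, 0.0349 with library sizes outside the MTRNR2L rows, and 0.0363 to 0.0445 with each pseudocount and the 5 CPM filter. TBC1D31, a protein of centriolar satellites, had 9.02, 14.8 and 6.35 CPM in LSC, against 28.6, 20.4 and 25.01 CPM in bulk. In limma its log2 difference of -1.37 had an adjusted p of 0.0978, and of 0.0336 with the block. The TBC1D31 populations did not overlap, with LSC lower. TBC1D13 had 32.4, 18.4 and 16.4 CPM in LSC, against 11.6, 14.1 and 3.20 CPM in bulk, and passed with the block alone (limma adjusted p = 0.0447, against 0.217). TBC1D3 belongs to a family of near-identical copies, so its reads may be divided unevenly and its values are uncertain. RABGAP1 itself, the relative of RABGAP1L, had a log2 change of 0.46 that did not pass (limma adjusted p = 0.392).

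**Figure D2:**
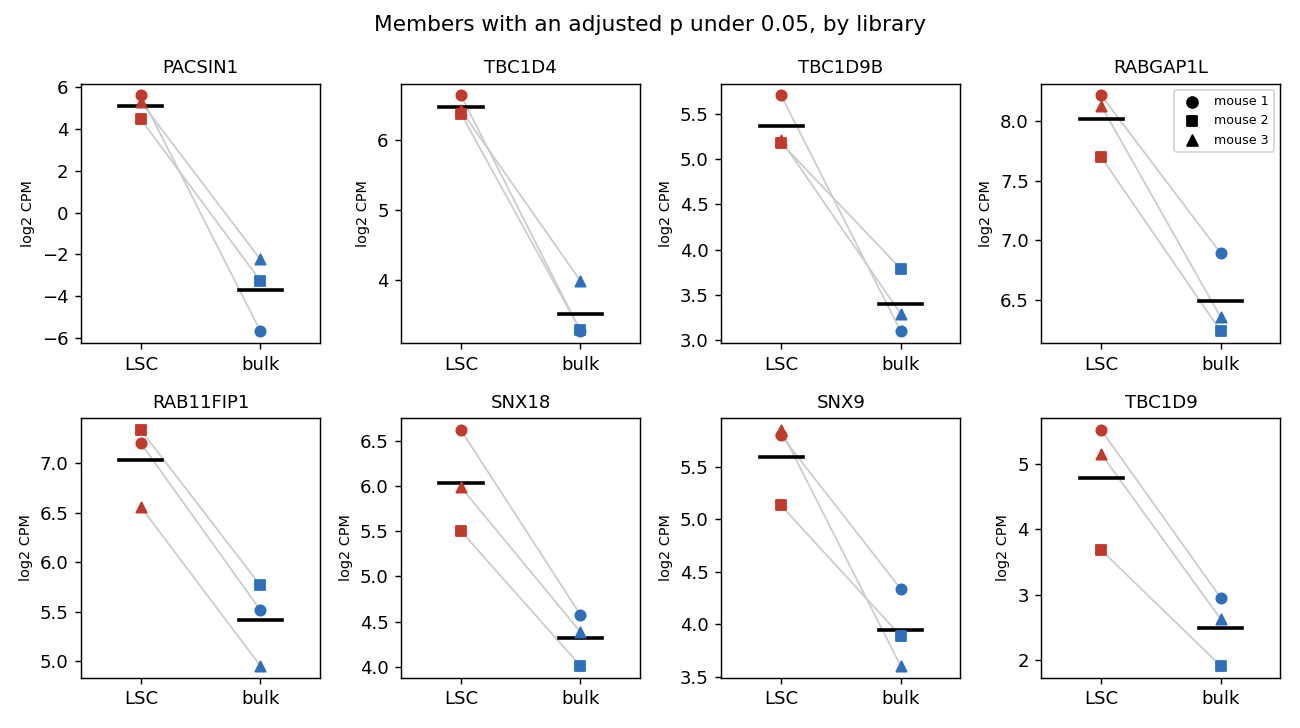
Log2 CPM by library for the 8 genes with an adjusted p under 0.05, LSC in red and bulk in blue, with lines joining libraries of 1 mouse and black bars for group means. In each of the 8 panels all 3 LSC libraries lie above all 3 bulk libraries, as in 13.2% of all genes tested. The 8 genes were chosen by the same comparison, which favours such separation, so it is no separate support. For PACSIN1, which passed the filter on low values through LSC alone, the filter fixed the separation.

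Among the 9 effectors and exchange factors 1 rose and 8 did not pass, against 2.71% of all genes higher. RAB11FIP1, a Rab11 effector of the recycling endosome, had 147, 162 and 94.3 CPM in LSC, against 45.7, 54.4 and 30.9 CPM in bulk. In both populations mouse 3 was lowest and mouse 2 highest, and the populations did not overlap. The difference was 1.62 log2 units (SE 0.33, limma adjusted p = 0.0311), and differences within mice were 1.69, 1.57 and 1.61. The call ended on leaving out any 1 library other than LSC of mouse 3, with an adjusted p of 0.0929 without bulk of mouse 1. Of its relatives, RAB11FIP2, RAB11FIP3 and RAB11FIP4 had log2 changes of -0.47, 0.52 and 0.03, with limma adjusted p of 0.452, 0.639 and 0.976. RAB3IP, an exchange factor for Rab8, had 39.7, 54.1 and 62.4 CPM in LSC, against 59.1, 58.2 and 121 CPM in bulk, with overlap and a log2 change of -0.54 (adjusted p = 0.435).

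None of the 48 Rab GTPases passed in limma without the block. At an unadjusted p under 0.05, 5 were higher and 6 lower, against 10.2% and 10.1% of all genes. Their log2 differences ran from -2.87 to 2.05 with a median of 0.21. With the block, 4 rose and 5 fell, against 8.25% and 7.71% of all genes. The populations did not overlap for 8 higher and 6 lower Rabs, against 13.2% and 11.9% of all genes tested.

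Of 5 Rabs of regulated secretion, grouped after their values were seen, none passed without the block. With it 3 fell, against 7.71% of all genes, a count that the choice of the group by its values may have raised. RAB27A, which docks granules and lysosome-related organelles at the plasma membrane, had 32.7, 51.7 and 13.6 CPM in LSC, against 74.5, 105 and 51.4 CPM in bulk. Within each mouse LSC were lower, but LSC of mouse 2 lay just above bulk of mouse 3, so the populations overlapped. The log2 change was -1.38 (SE 0.49), with a limma adjusted p of 0.162 without and 0.00936 with the block. RAB27B, its close relative in secretory cells, had 0.665, 0.380 and 0.656 CPM in LSC, against 5.99, 1.44 and 8.19 CPM in bulk. All LSC libraries were below all bulk libraries, at 24 reads in all against 180. With LSC under 1 CPM throughout, RAB27B passed the filter through bulk alone, so the filter fixed the lack of overlap. The difference of -2.87 log2 units missed the threshold (limma adjusted p = 0.0953, and 0.0316 with the block).

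RAB37, known from mast cell granules, had 4.88, 9.19 and 5.83 CPM in LSC, against 17.5, 26.6 and 11.5 CPM in bulk. Its populations did not overlap, with LSC lower, and the log2 change of -1.45 passed with the block alone (limma adjusted p = 0.0218, against 0.113). RAB3D and RAB3B, exocytic Rabs, had log2 changes of -0.70 and 0.31 that did not pass with or without the block (limma adjusted p of 0.367 and 0.727 without). Granule and neutrophil markers had a median log2 difference of -1.22, with 0 of 12 passing without the block. With it 5 were lower, against 7.71% of all genes. Within mice their medians were -1.15, -1.89 and 0.58. In mouse 3 the marker median was thus higher in LSC, while the marker sum was lower, at 141 CPM in LSC against 153 CPM in bulk. Their part in these values was not tested.

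RAB7A, the Rab of late endosomes and lysosomes, had 242, 196 and 242 CPM in LSC, against 349, 393 and 485 CPM in bulk. Every LSC library lay below every bulk library. The difference was -0.85 log2 units (SE 0.26), which passed with the block alone (limma adjusted p = 0.0200, against 0.111). RAB8B, an exocytic Rab, had 35.99, 23.9 and 13.1 CPM in LSC, against 57.7, 37.7 and 36.98 CPM in bulk, and it too was lower with the block (adjusted p = 0.0460, against 0.241).

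The 4 Rabs that rose with the block were RAB12, RAB22A, RAB29 and RAB42. RAB29, a trans-Golgi Rab that recruits the kinase LRRK2, had 34.1, 41.8 and 48.3 CPM in LSC, against 10.3, 20.8 and 25.7 CPM in bulk. RAB12, which sends transferrin receptor to lysosomes, had 36.6, 26.9 and 29.7 CPM in LSC, against 12.3, 11.4 and 19.9 CPM in bulk. RAB22A, an early endosome Rab, had 69.8, 91.5 and 92.5 CPM in LSC, against 41.6, 48.5 and 62.1 CPM in bulk. In these 3 genes the LSC libraries lay above the bulk libraries, with log2 changes of 1.21, 1.13 and 0.75 and blocked limma adjusted p of 0.0199, 0.0336 and 0.0451. RAB42 had 9.24, 58.4 and 32.5 CPM in LSC, against 4.79, 20.1 and 12.1 CPM in bulk. Its populations overlapped because mouse 1 was low in both, while LSC exceeded bulk in 3 of 3 mice (log2 change 1.30, adjusted p = 0.0184 with and 0.342 without the block).

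The core early endosome Rabs were close to level: RAB5A, RAB5B and RAB5C had log2 changes of 0.36, -0.18 and -0.02, and RAB21 of 0.16, with limma adjusted p of 0.708, 0.819, 0.983 and 0.797. Of 6 recycling Rabs 4 had positive and 2 negative values. RAB11A and RAB14 had 0.42 and 0.71, past no threshold (adjusted p of 0.464 and 0.221 in limma). Neither overlapped, as was so for 13.2% of all genes with LSC higher. RAB11B and RAB35 had -0.46 and -1.14 (limma adjusted p of 0.760 and 0.342). RAB4B reached 2.05 through bulk of mouse 1 alone, which had no read, while the other 5 libraries held 2.12 to 3.56 CPM. RAB38, a Rab of melanosomes and platelet dense granules, had 6.50, 1.97 and 1.60 CPM in LSC, against 1.03, 0.593 and 0.576 CPM in bulk. LSC were higher in 3 of 3 mice at these low levels, and the log2 change of 1.93 (SE 0.80) did not pass (limma adjusted p = 0.221).

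**Figure D3:**
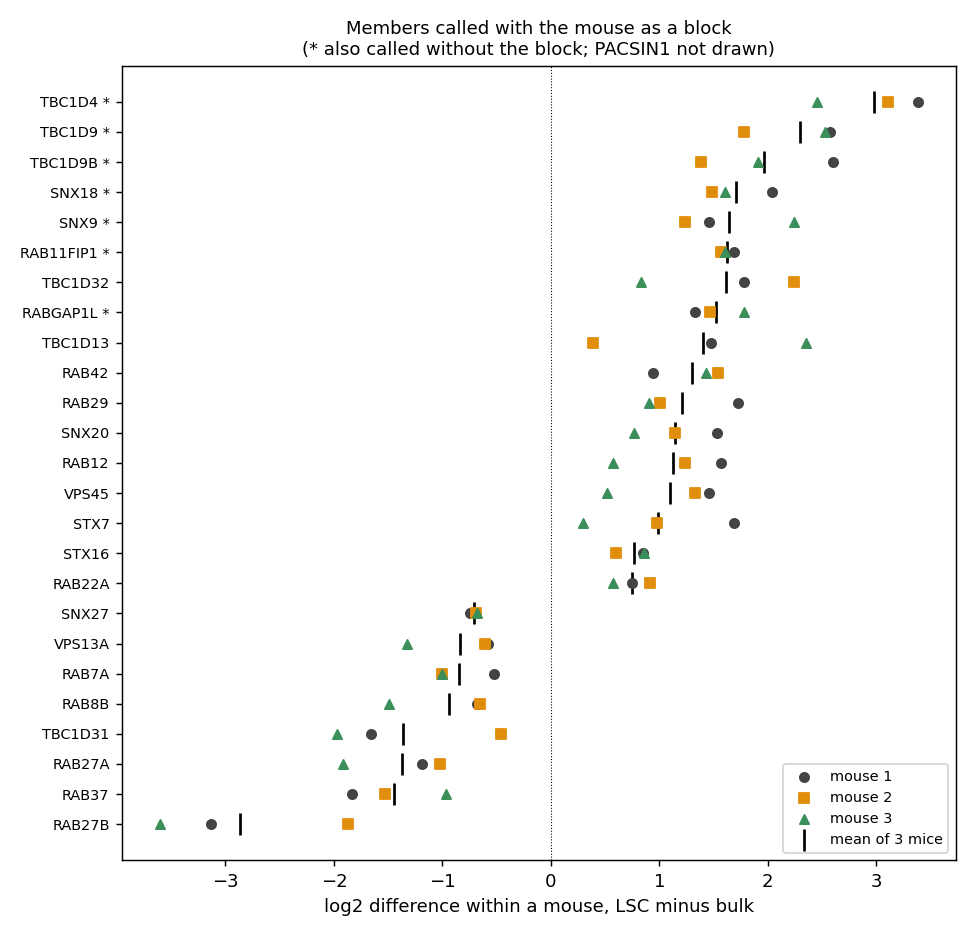
Log2 difference within each mouse (LSC minus bulk) for 25 of the 26 genes called with the mouse as a block. PACSIN1, at 7.53 to 11.27, is not drawn. All 3 mice lie on the same side of 0 for every gene drawn, and RAB27B is the lowest at -3.60 to -1.87. The genes were chosen by this fit, which favours agreement between mice, so the agreement is no separate support. RAB27B passed the filter on low values through bulk alone.

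Of 26 sorting nexins, 2 rose, 0 fell and 24 did not pass in limma, against 2.71% of all genes higher and 1.33% lower. At an unadjusted p under 0.05, 4 were higher and 3 lower, against 10.2% and 10.1% of all genes. The 2 were SNX9 and SNX18, relatives that carry a BAR domain and an SH3 domain and act with dynamin in endocytosis. SNX18 had 98.1, 45.2 and 63.3 CPM in LSC, against 23.8, 16.1 and 20.9 CPM in bulk. SNX9 had 55.5, 34.99 and 57.5 CPM in LSC, against 20.2, 14.8 and 12.2 CPM in bulk. In both genes all LSC libraries exceeded all bulk libraries, with mouse 2 lowest in LSC. Log2 changes were 1.71 (SE 0.36, limma adjusted p = 0.0337) for SNX18 and 1.64 (SE 0.35, adjusted p = 0.0341) for SNX9. Either call ended on leaving out any 1 library other than LSC of mouse 2, and without bulk of mouse 1 the adjusted p was 0.0826 and 0.0658.

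The SNX-BAR proteins that work with retromer were not among the risers: SNX1, SNX2, SNX5 and SNX6 had log2 changes of 0.26, -0.75, -0.60 and 0.05, with limma adjusted p of 0.645, 0.294, 0.325 and 0.944. SNX20, which binds the selectin ligand PSGL-1, had 14.9, 32.1 and 22.7 CPM in LSC, against 5.14, 14.6 and 13.3 CPM in bulk, and rose with the block alone (limma adjusted p = 0.0340, against 0.230). SNX27, a retromer adaptor with a PDZ domain, had 56.5, 89.3 and 63.7 CPM in LSC, against 94.9, 144 and 102 CPM in bulk, and fell with the block alone (limma adjusted p = 0.0433, against 0.233). Its differences within mice were -0.75, -0.69 and -0.68, nearly equal. SNX25 had 2.44, 3.99 and 2.70 CPM in LSC, against 5.31, 4.91 and 30.1 CPM in bulk, and its negative log2 change of -1.63 leaned on the high bulk library of mouse 3, without which it was -0.78 (adjusted p = 0.236 with and 0.494 without that library).

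None of the 31 VPS genes passed in limma without the block, with 1 higher and 3 lower at an unadjusted p under 0.05, against 10.2% and 10.1% of all genes. VPS37B, a subunit of ESCRT-I, which sorts ubiquitinated cargo into multivesicular bodies, had 0, 0 and 0 CPM in LSC, against 2.74, 1.78 and 2.18 CPM in bulk. It was thus listed without a read in every LSC library and with 71 reads over the bulk libraries, at least 30.6-fold lower in LSC with 3 reads over the group as the floor. VPS37B passed the filter on low values through bulk alone, so the filter fixed that its populations did not overlap. Its limma adjusted p was 0.0524. Of 19 alternative settings that kept the gene, 10 called it, among them log2(CPM + 1) at 0.0183 and voom at 0.0132, while the block gave 0.0654 and the test without bulk of mouse 1 gave 0.403. Its fitted log2 change of -6.82 depends on the prior. Without a read, its deposited LSC values all sat at the floor, so LSC added no spread to the tests on those values. The number of settings that called VPS37B is therefore no support for a difference. The other ESCRT-I members, VPS28, VPS37A and VPS37C, had log2 changes of -0.08, -0.62 and 0.26, with limma adjusted p of 0.944, 0.285 and 0.894.

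VPS45, a Sec1/Munc18 protein of endosomal fusion whose loss causes congenital neutropenia, had 45.7, 37.3 and 33.04 CPM in LSC, against 16.6, 14.9 and 23.03 CPM in bulk. The LSC libraries were all higher, and the log2 change of 1.10 (SE 0.32) passed with the block alone (limma adjusted p = 0.0321, against 0.0973). VPS13A, a bridge-like lipid transfer protein, had 183, 117 and 118 CPM in LSC, against 273, 178 and 296 CPM in bulk. It was lower in 3 of 3 mice with overlap between the populations, and fell with the block (limma adjusted p = 0.0329, against 0.180). An antisense transcript, VPS13A-AS1, is listed too, and the sources used here do not say whether counting used strand, so reads of both cannot be told apart.

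Retromer, which retrieves receptors from endosomes, had 4 of 4 core subunits with negative values, as had 6909 of 13755 genes tested. VPS35 had 79.7, 44.5 and 55.3 CPM in LSC, against 103, 98.4 and 86.4 CPM in bulk. VPS26A had 14.9, 13.4 and 8.02 CPM in LSC, against 20.9, 22.95 and 14.97 CPM in bulk. In both every LSC library lay below every bulk library, as in 11.9% of all genes tested. The log2 changes of -0.72 and -0.72 did not pass (limma adjusted p = 0.221 and 0.324, and 0.0645 and 0.119 with the block). VPS26B and VPS29 were near level at -0.11 and -0.07 (limma adjusted p = 0.914 and 0.901). None of the 7 subunits of the HOPS and CORVET tethers of endosomes, or of the 4 subunits of the GARP and EARP tethers, passed with or without the block. Their median log2 differences were 0.05 and -0.17, against 0.00 over all genes tested.

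None of 14 syntaxins and none of 6 VAMPs passed in limma without the block, with 2 syntaxins and 1 VAMP higher and 0 lower at an unadjusted p under 0.05, against 10.2% of all genes higher and 10.1% lower. STX7, the syntaxin of late endosomes, had 120.3, 82.8 and 117 CPM in LSC, against 37.3, 42.1 and 95.3 CPM in bulk. Bulk of mouse 3 overlapped with LSC, and without that library the log2 change was 1.41 (limma adjusted p = 0.0493), against 0.99 (adjusted p = 0.199) with it and 0.0440 with the block. STX18, a syntaxin of the endoplasmic reticulum, had 31.1, 30.2 and 38.1 CPM in LSC, against 11.98, 21.3 and 19.8 CPM in bulk. Its populations did not overlap, and its log2 change of 0.94 missed the threshold (limma adjusted p = 0.169, and 0.0512 with the block).

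VAMP8, which acts in lysosomal fusion and granule release, had 39.2, 34.8 and 28.2 CPM in LSC, against 20.9, 24.6 and 9.92 CPM in bulk. The LSC libraries were all higher, with a log2 change of 0.97 and a limma adjusted p of 0.217, or 0.0501 with the block. VAMP7, another VAMP, had a log2 change of -0.27 (adjusted p = 0.701 in limma) with overlap. STX16, a trans-Golgi syntaxin, was higher in 3 of 3 mice and passed with the block alone (log2 change 0.77, limma adjusted p = 0.0283, against 0.249). Its gene overlaps the readthrough row STX16-NPEPL1, which had 0 to 6.47 CPM, so its value is uncertain to that extent. The 3 antisense rows, RAB11B-AS1, RAB30-AS1 and VPS13A-AS1, had log2 changes of 0.11, -0.46 and -0.76, and the pseudogene SNX29P1 had 0.80. None of these passed (limma adjusted p of 0.602 to 0.950).

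Over the members, mice took a median of 38.5% of the variance in log2 CPM and populations 21.6%, against 43.8% and 26.8% over all genes tested. The shares are of sums of squares, which favours the factor with more levels. The share between mice was the larger for 100 of 172 members, or 58.1% against 60.5% of all genes. These differences are described without a test, since each mouse has 1 library a population.

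Of the genes with a larger share between mice, a few were picked with their values in view. RAB44, a large Rab described in mouse mast cells, had 9.02, 13.9 and 1.02 CPM in LSC, against 15.2, 23.9 and 1.66 CPM in bulk. Both libraries of mouse 3 were low, and 95.2% of its variance lay between mice. RAB32, a Rab of lysosome-related organelles, had 11.8, 10.7 and 4.67 CPM in LSC, against 10.8, 15.1 and 3.84 CPM in bulk. It was again lowest in mouse 3 in both populations, with a log2 change between populations of -0.03 (limma adjusted p = 0.986). Granule and neutrophil markers were low in the same 2 libraries, with sums of 141 CPM (LSC) and 153 CPM (bulk), and their part in the levels of RAB44 and RAB32 was not tested.

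The endosome tether subunits VPS18 and VPS16 were highest in mouse 2 within each population. VPS18 had 3.69, 6.66 and 0.729 CPM in LSC, against 2.57, 4.91 and 1.28 CPM in bulk. VPS16 had 6.35, 19.8 and 4.01 CPM in LSC, against 2.57, 13.97 and 2.11 CPM in bulk. In both genes mouse 3 was the lowest of the 3 mice within each population. RAB13, a Rab of junction and receptor traffic, had 33.1, 16.5 and 16.1 CPM in LSC, against 60.8, 54.96 and 8.83 CPM in bulk, with bulk of mouse 3 below every other library.

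**Figure D4:**
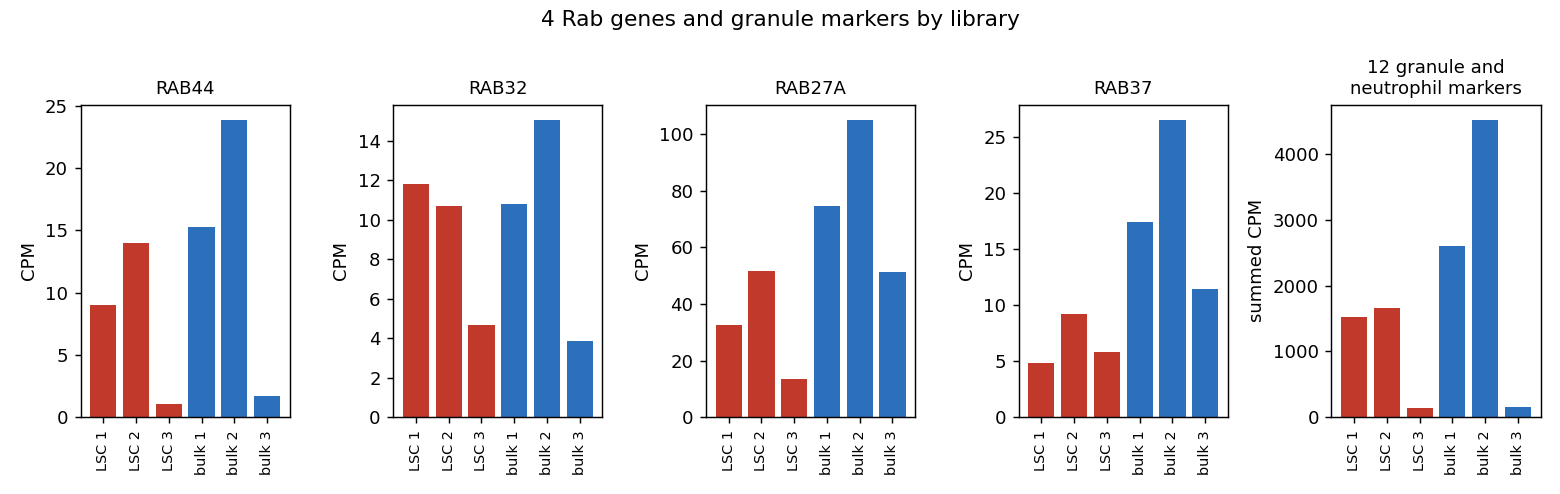
CPM by library (LSC in red, bulk in blue) for RAB44, RAB32, RAB27A and RAB37, and the summed CPM of 12 granule and neutrophil markers. In mouse 3, RAB44 has 1.02 CPM (LSC) and 1.66 CPM (bulk), where the marker sum is 141 and 153 CPM.

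Genes of the same pathways outside the naming rule were examined as 5 lists. Of 179 tested, 4 rose and 1 fell in limma, against 2.71% and 1.33% of all genes. With the block 18 rose and 12 fell, against 8.25% and 7.71% of all genes. The median log2 difference was 0.00 over the 179. In the Rab cycle list 1 of 47 rose: DENND5B, with a DENN domain of Rab exchange factors, averaged 36.3 ± 6.004 CPM in LSC and 12.4 ± 2.72 CPM in bulk (SD, n = 3 mice each; log2 change 1.55, SE 0.33, limma adjusted p = 0.0341). Of 41 Rab effectors none rose and 1 fell, EHD3, an ATPase of recycling endosomes, with 0.591, 0.697 and 0.583 CPM in LSC, against 3.94, 7.96 and 4.99 CPM in bulk (limma adjusted p = 0.0304). LSC were low in all 3 mice for EHD3, which was under 1 CPM there and passed the filter through bulk alone.

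In the ESCRT list 1 of 20 rose, CHMP1B, an ESCRT-III subunit, with 82.1, 106 and 150.4 CPM in LSC, against 30.5, 41.8 and 30.3 CPM in bulk (log2 change 1.69, limma adjusted p = 0.0222). Of 45 genes of coats, retrieval and sorting receptors 1 rose: GGA2, a trans-Golgi clathrin adaptor, had 307, 525 and 265 CPM in LSC, against 74.1, 120.4 and 75.04 CPM in bulk (log2 change 2.00, SE 0.34, limma adjusted p = 0.0157). Of 26 other SNARE genes 1 rose, SNAP25, the partner of syntaxin in regulated exocytosis. SNAP25 had 129 reads over the LSC libraries and 1 over the bulk libraries. The ratio was 99.8, with an exact 95% interval for counting error of 17.6 to 3972, and a limma adjusted p of 0.0398. In each of these genes the LSC libraries did not overlap the bulk libraries. For SNAP25, which passed the filter on low values through LSC alone, the filter fixed this.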

How the data were processed

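RNA of 6 sorted populations (LSC and bulk of 3 mice) was amplified with a NuGEN Ovation kit, per the labels' protocols. Upstream tools were RSEM, Bowtie2 and edgeR with build hg19, per the submitters' processing notes, which give no version or role. Per library, the authors deposited log2 CPM that contain a prior. Their fold change (log2, bulk minus LSC), likelihood ratio score, false discovery rate and p-value are in that deposited table too. Removing the shared floor (0.0197 CPM) and dividing by the step gave reads, whole within 0.1 for 100% of values. CPM printed here are those reads times the step.

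After a filter of at least 1 CPM in 3 or more libraries, 13755 of 13892 genes were tested with limma 3.58.1 in R 4.3.3 (lmFit, eBayes with trend, two-sided, Benjamini-Hochberg over all genes, threshold 0.05) on the deposited log2 values. The code was tested on simulated data. Members, lists and tests were chosen with earlier results of these data known, and the named VPS, nexin and Rab subgroups after values were seen. Named are PACSINs, members past the threshold, the 2 with the largest moderated statistic in each role, the 10 with the smallest adjusted p with the block, and members without a read in a group. Further genes were picked with their values in view. Both libraries of a number come from 1 mouse, and over genes the correlation of their deviations from the group means was 0.327, 0.35 and 0.302. The number thus pairs the samples. The mouse block is therefore printed where it changes a call. Alternatives were pseudocounts, filters, 3 scalings, eBayes without trend, voom, the block, and leaving out libraries or mice. Leaving out mice from the blocked fit was added after seeing the data.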

Additional observations from a re-analysis of the deposited data

How the results depend on the processing

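Against 8 members higher and 0 lower in LSC (373 and 183 of all genes), the counts with the mouse as a block were 18 and 8 (1135 and 1060 of all genes). Without trend in eBayes they were 3 and 1 (197 and 54 of all genes). The 1 lower member, VPS37B, was also called with each pseudocount, with no filter, under upper-quartile rescaling, with library sizes outside the MTRNR2L rows and with voom. Its deposited LSC values, all at the floor, had no spread, so these calls are no support for a difference. With 1 and 5 CPM added, 302 and 280 of all genes were lower. Leaving out 1 library or 1 mouse gave 1 to 7 higher and 0 to 1 lower members, and 37 to 346 higher and 0 to 169 lower genes. In the blocked fit, leaving out 1 mouse gave 8 to 27 higher and 1 to 11 lower members. Over the 20 named members, no log2 change reversed in any setting: 324 values kept their call, 50 lost it and 24 gained it. Most of the 20 were named for their statistics in these data, which favours stable signs. Other members did reverse. RAB4B went from 2.05 to -0.36 without bulk of mouse 1, and RAB44 from -0.74 to 0.40 without LSC of mouse 3. The block ended none of the 8 calls. Under the 3 scalings the median log2 difference of all genes lay between -0.05 and 0.05. The cause of each move was not tested. Bulk of mouse 1 was the shallowest library, which limits members of few reads, such as VPS37B and RAB38.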

Other observations

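Members paired by a shared name stem were split evenly between same and opposite signs. By this pairing 40 pairs share a stem, such as RAB5A and RAB5B, over 24 stems, and 20 pairs had log2 differences of the same sign and 20 of opposite sign. Pairs were formed from the symbol alone and not for SNX, STX or VAMP genes. Of all members 93 had positive and 79 negative log2 differences. Pairs formed without regard to name would thus also split nearly evenly, and a gene can be in several pairs. The split is no result about related genes. A pair such as RABEP1 and RABEPK therefore need not be related proteins. TBC1D9 and TBC1D9B were both higher, at 2.29 and 1.97, and RAB1A and RAB1B, Rabs of traffic from the endoplasmic reticulum to the Golgi, stood at 0.53 and 0.56, neither past the threshold (limma adjusted p = 0.368 and 0.564). By contrast RAB2A and RAB2B stood at -0.53 and 0.57, and TBC1D2 and TBC1D2B at -1.65 and 0.27, with none of the 4 past the threshold (limma adjusted p of 0.283 to 0.765). Reads of similar copies can be divided unevenly, so these values carry that limit.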
